A study of Homo sapiens with 12 samples.

Results

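Expression of 8 homeobox genes was followed in the B-lineage acute lymphoblastic leukaemia cell lines 697 and KOPN-8: the HOXA cluster genes HOXA3, HOXA5, HOXA6, HOXA7, HOXA9 and HOXA10 and the cofactor genes MEIS1 and PBX3. They were taken by symbol from a table of raw read counts for 59611 genes, and all 8 were found in it. After a filter on low counts that left 15218 genes all 8 were tested, but HOXA7, HOXA9, HOXA10 and MEIS1 passed that filter only through KOPN-8. HOXA3, HOXA5, HOXA6 and PBX3 passed it in both lines.

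Both lines were sequenced as stranded, poly-A-selected RNA, with 3 libraries in each of 4 groups. The control groups, 697 control and KOPN-8 control, received an empty single-guide RNA vector and are labelled SETD2 WT. The edited groups are labelled SETD2 heterozygous KO and each comes from 1 clone, BM_B in 697 and BA in KOPN-8, which received a guide RNA against SETD2. SETD2 is the methyltransferase that places trimethylation on lysine 36 of histone H3 in transcribed gene bodies. As background, KOPN-8 carries the KMT2A::MLLT1 fusion and 697 has no KMT2A fusion. With 1 clone a line, the edit and other properties of the clone cannot be told apart, and the labels do not say whether the controls were cloned. Libraries of a group are labelled as biological replicates, with no mention of separate cultures, so that p-values measure the spread between these libraries, which may be technical.

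HOX proteins are transcription factors that set position along the body axis in the embryo and are used again in blood stem and progenitor cells, where HOXA genes are active early and are switched off as cells mature. They bind DNA with partners of the TALE class of homeobox proteins, the PBX and MEIS families: PBX proteins bind beside a HOX protein on a joint site, and MEIS proteins bind to PBX. Fusions of KMT2A keep HOXA9, its neighbours and MEIS1 active in leukaemia, and PBX3 is the PBX family member most often tied to HOXA9 in those leukaemias.

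Libraries held 10378769 to 18278662 counts. SETD2 itself had a mean of 161 CPM (the usual depth-scaled count unit, on TMM-scaled library sizes) in 697 control and 219 CPM in 697 edited, and 169 and 158 CPM in the KOPN-8 groups. In 697 edited it was called higher, at an adjusted p under 0.05, in each of 20 fits by edgeR, DESeq2 or limma. Its log2 fold change there ran from 0.37 to 0.48, with an adjusted p of at most 0.00252. In KOPN-8 SETD2 was not called in any of 20 such fits (lowest adjusted p 0.182). A count over the whole gene does not show whether 1 allele is edited, so the labels were not checked by it. Of 8 B-lineage markers, 8 were at 1 CPM or more in each of the 4 groups, and their summed level ran from 2077 to 3872 CPM. The myeloid markers summed to at most 2.18 CPM in 697, where MPO, CD33 and ELANE had no count, and to between 36.3 and 47.2 CPM in KOPN-8, where most of it was CD33. Erythroid markers summed to at most 0.111 CPM in any library, with HBB and ALAS2 at 0 counts in all groups. In such bulk RNA, fewer cells that express a gene and less RNA per cell cannot be told apart.

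The HOXA genes lie in one row on chromosome 7, on the minus strand, in the order of their numbers, with HOXA13 at the high-coordinate end. In 697 the level along this row changed between HOXA6 and HOXA7, as described below, although HOXA2 and HOXA4 also had few reads. The upstream sequences of the genes on either side of that point are given here. They are the 250 bases before the start of HOXA6 (chr7:27147775-27148024), of the HOXA3 transcript that starts farthest upstream, between HOXA6 and HOXA7 (chr7:27152584-27152833), of HOXA7 (chr7:27156676-27156925) and of HOXA9 (chr7:27165538-27165787), all on the minus strand of GRCh38.p14, from RefSeq. Capitals mark CpG dinucleotides, the sites of DNA methylation in mammals.
HOXA6: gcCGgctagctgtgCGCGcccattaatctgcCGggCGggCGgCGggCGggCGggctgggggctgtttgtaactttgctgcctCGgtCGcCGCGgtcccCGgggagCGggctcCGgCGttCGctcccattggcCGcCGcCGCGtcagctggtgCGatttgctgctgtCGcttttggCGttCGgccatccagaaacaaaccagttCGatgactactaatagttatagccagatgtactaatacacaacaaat
HOXA3: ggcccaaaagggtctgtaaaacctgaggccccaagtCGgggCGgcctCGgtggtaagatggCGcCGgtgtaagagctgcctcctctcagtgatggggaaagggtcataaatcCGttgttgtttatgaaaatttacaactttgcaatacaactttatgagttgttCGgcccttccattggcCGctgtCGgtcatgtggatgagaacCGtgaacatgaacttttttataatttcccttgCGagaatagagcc
HOXA7: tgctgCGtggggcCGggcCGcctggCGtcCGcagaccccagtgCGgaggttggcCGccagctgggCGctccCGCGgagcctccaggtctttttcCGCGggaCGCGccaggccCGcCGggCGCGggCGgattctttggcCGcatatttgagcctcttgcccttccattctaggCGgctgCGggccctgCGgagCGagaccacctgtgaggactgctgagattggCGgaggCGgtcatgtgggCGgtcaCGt
HOXA9: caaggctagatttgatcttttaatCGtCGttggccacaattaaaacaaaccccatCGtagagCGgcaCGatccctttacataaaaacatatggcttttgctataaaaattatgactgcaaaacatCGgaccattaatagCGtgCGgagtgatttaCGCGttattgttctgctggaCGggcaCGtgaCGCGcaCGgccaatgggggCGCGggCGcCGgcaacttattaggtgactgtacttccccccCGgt
The HOXA6 window held 27 CpG, the HOXA7 window 28, the HOXA9 window 20 and the HOXA3 window 11, beside a median of 11 over 35116 promoter windows of the same length. Any part of CpG number in the level of these genes was not tested. A joint PBX-HOX motif (TGATNNAT, either strand) was in 0 of the 14 windows that RefSeq gives for 7 of the 8 genes, and in 6.47% of all windows. The MEIS motif (TGACAG, either strand) was in 1 of the 14, that of PBX3, starting 20 bases before the start, and in 13.0% of all windows. The authors' counts carry no coordinates and were made on hg19, so these positions serve for the sequences only.

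In the control groups the lines differed most at the posterior genes and at MEIS1. HOXA9, the HOX gene best known as a driver of myeloid leukaemia, had 0 counts in each of the 3 libraries of 697 control. In KOPN-8 control it stood at 152, 143 and 145 CPM. The floor of 3 counts over the 697 control libraries makes it at least 2200-fold higher in KOPN-8. HOXA10, its upstream neighbour, had 2 counts in 697 control and 223, 226 and 227 CPM in KOPN-8 control, a ratio of 5081 (95% exact interval 1406 to 41960, counting error only). HOXA7, its downstream neighbour, had 1 count in 697 control and 56.6, 60.8 and 63.2 CPM in KOPN-8 control, a ratio of 2731 (490 to 107900). MEIS1, on chromosome 2, had 1 count in 697 control and 183, 172 and 175 CPM in KOPN-8 control, a ratio of 7942 (1425 to 313700). These 4 genes passed the filter only through KOPN-8, so a gap between the lines was fixed in advance. None was above a handful of reads in any 697 library.

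HOXA3, HOXA5 and HOXA6 were low but present in 697. HOXA3 stood at 2.22, 2.42 and 2.41 CPM in 697 control against 51.8, 49.8 and 55.4 CPM in KOPN-8 control, a log2 fold change of 4.47 (edgeR quasi-likelihood F test, adjusted p = 1.92e-19). HOXA5 was 5.53 higher and HOXA6 3.64 higher in KOPN-8 control on the same log2 scale, and both were called. PBX3 was the exception among the 8: it stood at 29.2, 27.8 and 26.9 CPM in 697 control and 23.6, 25.3 and 25.9 CPM in KOPN-8 control. Those groups did not overlap, but the difference of -0.17 was not called (adjusted p = 0.111). With upper-quartile scaling it became -0.26 and was called (adjusted p = 0.0142). In all, 7 of the 8 genes were called higher in KOPN-8 control, where 73.3% of all tested genes were called in either direction, and 4 of the 7 had to differ because only KOPN-8 carried them past the filter.

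**Figure D1:**
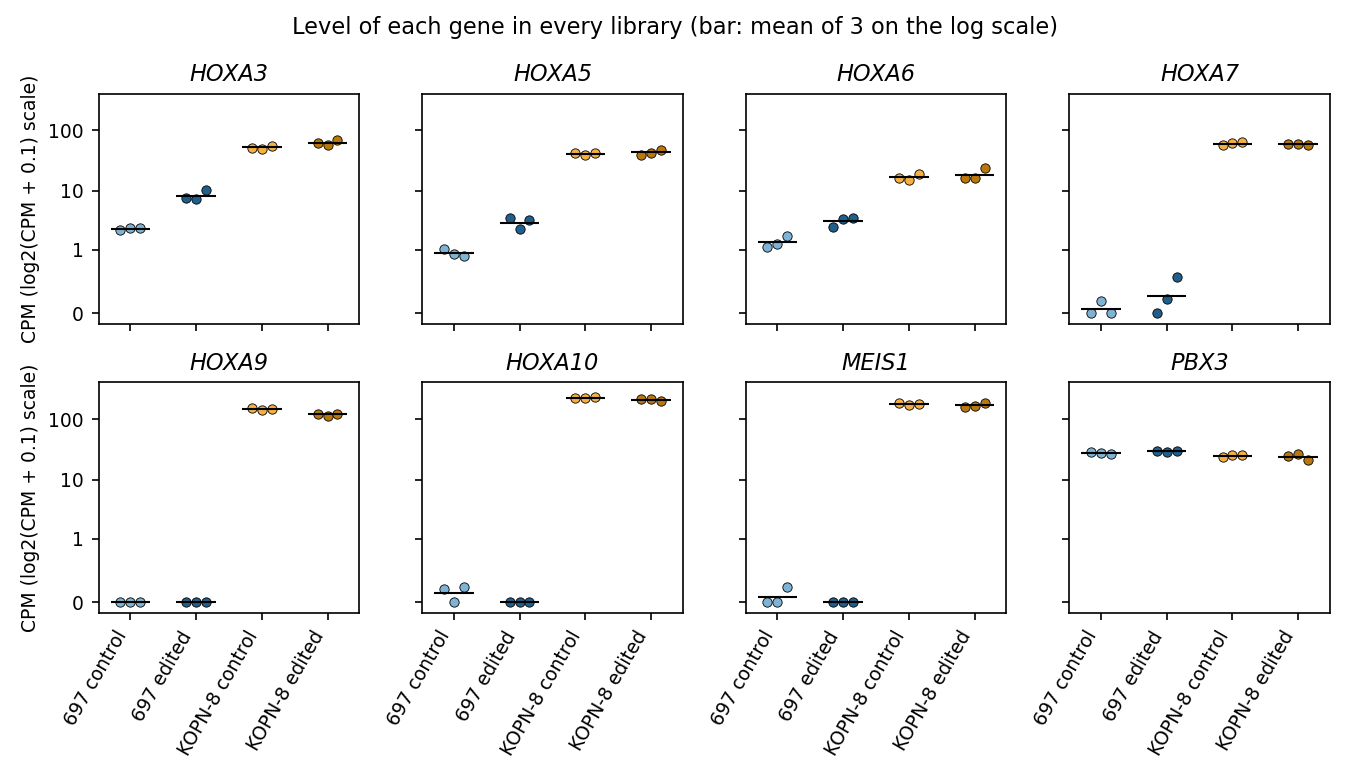
CPM of each of the 8 genes in every library, on a log2(CPM + 0.1) axis, with 1 panel a gene; points are the 3 libraries of a group and bars are their mean on that scale. HOXA3, HOXA5 and HOXA6 stand higher in 697 edited than in 697 control, HOXA7, HOXA9, HOXA10 and MEIS1 are at or near 0 in both 697 groups, and PBX3 is near the same level in all 4 groups.

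Levels of different genes were compared per kilobase of merged exon (GENCODE gene models). In KOPN-8 control the posterior genes led, HOXA10 at 60.8 ± 0.453 CPM per kb (SD, n = 3) and HOXA9 at 48.5 ± 1.64 CPM per kb. A middle pair followed, HOXA7 at 25.0 ± 1.38 and HOXA5 at 24.3 ± 0.855 CPM per kb. MEIS1 came next at 16.2 ± 0.533, then HOXA6 at 13.2 ± 1.55, HOXA3 at 12.2 ± 0.664 and PBX3, the lowest of the 8, at 5.50 ± 0.261 CPM per kb. HOXA7 and HOXA5, and likewise HOXA6 and HOXA3, were closer to each other than their spread. In 697 control the order was another: PBX3 came first at 6.17 ± 0.252 CPM per kb, followed by HOXA6 at 1.07 ± 0.251, HOXA3 at 0.546 ± 0.0258 and HOXA5 at 0.517 ± 0.0876, the last pair within its spread. HOXA10, HOXA7, MEIS1 and HOXA9 followed with 0 to 2 counts each over the 697 control libraries, too few to order.

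In 697 the edited clone carried more RNA of the 3 HOXA genes that its control expressed at a measurable level. HOXA3 stood at 2.22, 2.42 and 2.41 CPM in 697 control and 7.59, 7.36 and 10.5 CPM in 697 edited. Every edited library was above every control library, and the third edited library was the highest. The log2 fold change was 1.83 ± 0.17 (SE), a 3.56-fold rise (adjusted p = 2.53e-08, edgeR quasi-likelihood F test with Benjamini-Hochberg adjustment over all tested genes, as for each adjusted p below unless another tool is named). HOXA3 still lay far under the 52.3 ± 2.86 CPM (SD, n = 3) of KOPN-8 control.

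HOXA5 had 1.05, 0.847 and 0.753 CPM in 697 control and 3.50, 2.28 and 3.22 CPM in 697 edited. The groups did not overlap, although the second edited library was nearer to the controls than the other two. Its log2 fold change was 1.74 ± 0.24 (adjusted p = 1.83e-05), on 40 counts in the control libraries and 111 in the edited ones. HOXA6 moved least of the 3, from 1.11, 1.27 and 1.73 CPM to 2.53, 3.39 and 3.61 CPM, again without overlap. Its rise was 1.21 ± 0.27 (adjusted p = 0.00452).

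HOXA7, HOXA9, HOXA10 and MEIS1 showed no such signal in 697. HOXA7 had 1 count over the control libraries and 4 over the edited ones, a ratio of 4.84 with an interval of 0.479 to 238, and 3 of those 4 counts were in 1 library. HOXA9 had no count in any of the 6 libraries, HOXA10 had 2 counts in control and 0 in edited libraries, and MEIS1 had 1 and 0. A count of 0 in 1 library allows up to 3 counts, so the presence of a few transcripts could not be detected at this depth. PBX3 was 30.4, 29.2 and 29.7 CPM in 697 edited, against 29.2, 27.8 and 26.9 CPM in the control, and was not called (log2 fold change 0.09 ± 0.09, adjusted p = 0.631).

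Of the 8 genes, 3 were thus called in 697, all higher, where 9.45% of all tested genes were called and 4.85% were called higher. With the replicate number as a block, a pairing that the correlations between same-numbered 697 libraries allowed, 2319 genes were called in place of 1438, and HOXA3, HOXA5 and HOXA6 were the members called in both fits. They were also the members called under each other alternative run, each library left out in turn included.

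Other protein-coding genes of the cluster had few reads in 697. In 697 control HOXA2 and HOXA4 were about as low as HOXA11, although HOXA4 lies between HOXA3 and HOXA5. HOXA2, an anterior HOX gene, went from 1 to 12 counts, a ratio of 14.5 (2.15 to 620), with an adjusted p of 0.0427 that became 0.056 with DESeq2. Its call was also lost without 697 control replicate 2 or 3, or with any 1 of the 697 edited libraries left out, and without KOPN-8 control replicate 2 or KOPN-8 edited replicate 2 (adjusted p from 0.0512 to 0.141). HOXA4 went from 5 to 16 counts, a ratio of 3.87 (1.36 to 13.5), and was not called (adjusted p = 0.0565), but was with the replicate block (0.0402) and by limma on the authors' normalized values (0.00521). Beyond HOXA7, HOXA11 had 3 counts in 697 control and 0 in 697 edited. So HOXA2, HOXA3, HOXA5 and HOXA6 were called higher, HOXA4 was not, and the genes from HOXA7 to HOXA11 stayed at 4 counts or fewer in each 697 group. Of the noncoding genes of the cluster, 4 of 6 were tested, and these passed the filter on low counts only through KOPN-8. In 697 control and edited, HOTAIRM1 and HOXA10-AS had 0 counts, HOXA11-AS had 5 and 0, and HOXA-AS3 had 4 and 6. A call in 697 was thus hardly possible, and 0 were called, beside 9.45% of all tested genes.

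**Figure D2:**
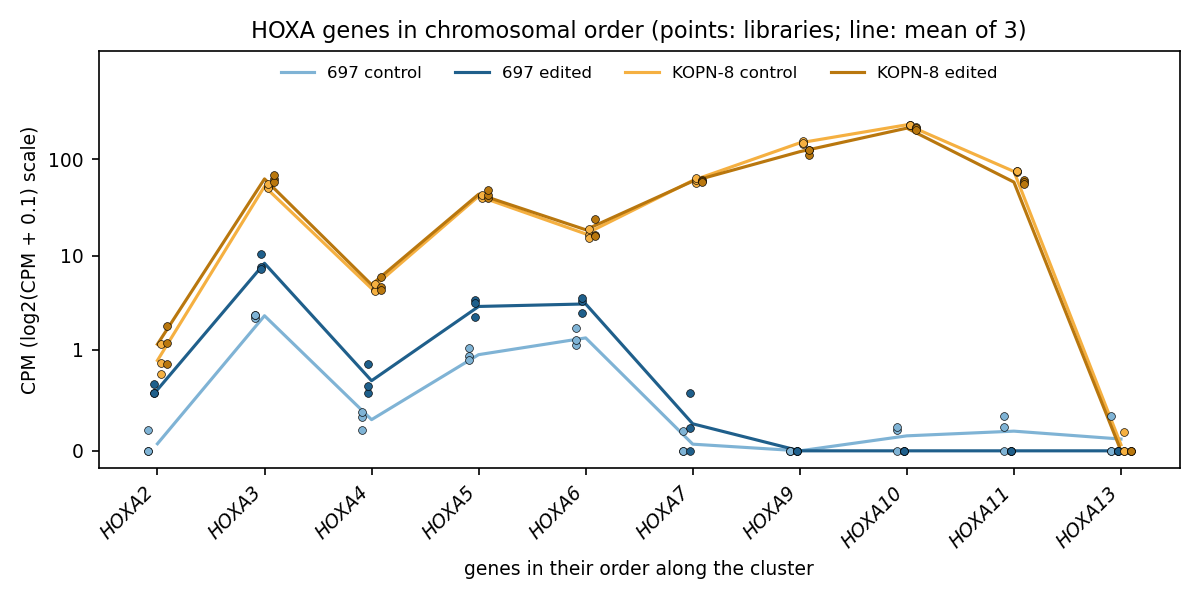
CPM of 10 HOXA genes in their order along chromosome 7, on a log2(CPM + 0.1) axis, with points for the 3 libraries of each group and lines through the means. In 697 the line of the edited clone runs above that of the control from HOXA2 to HOXA6 and both are at or near 0 from HOXA9 on, whereas in KOPN-8 the levels reach their highest at HOXA10.

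Gene models bear on how far these genes can be told apart. HOXA3, HOXA5 and HOXA6 share no exon bases with each other in GENCODE, but the longest HOXA3 model runs from 27106184 to 27152581 on chromosome 7 (GRCh38) and so spans HOXA4, HOXA5 and HOXA6, starting between HOXA6 and HOXA7. Unnamed transcripts on the same strand share 6.83% and 8.78% of the HOXA3 exon bases. The antisense gene HOXA-AS3 covers 39.3% of HOXA6 and 62.5% of HOXA7 exon bases. It had 4 counts in 697 control and 6 in 697 edited, and the strand setting of the authors' counting is not given in the sources used here. HOXA9 and HOXA10 share 397 and 368 exon bases with a readthrough gene, which had 1 count in each KOPN-8 group. With the antisense gene HOXA10-AS they share 422 and 608 exon bases, 13.9% and 16.4% of their own. HOXA10-AS had 243 counts in KOPN-8 control and 165 in KOPN-8 edited. Counts in HOXA9 and HOXA10 are uncertain for both reasons.

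In KOPN-8, where the whole row from HOXA3 to HOXA11 was expressed, the changes were small and went both ways. HOXA9 stood at 152, 143 and 145 CPM in KOPN-8 control and 123, 111 and 123 CPM in KOPN-8 edited. The groups did not overlap, and HOXA9 fell by 0.30 on the log2 scale (SE 0.07, adjusted p = 0.00317). HOXA3 went the other way, from 51.8, 49.8 and 55.4 CPM to 61.6, 57.9 and 68.1 CPM, a rise of 0.26 ± 0.09 (adjusted p = 0.0372). Both calls were lost when limma was run on the authors' normalized values (adjusted p = 0.167 for HOXA9 and 0.153 for HOXA3). HOXA3 also lost its call without control replicate 1 (0.11), control replicate 2 (0.159), edited replicate 1 (0.0765) or edited replicate 3 (0.18), while HOXA9 kept its call with any 1 library left out.

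HOXA10, the most abundant of the 8 in KOPN-8, was at 223, 226 and 227 CPM in the control and 214, 210 and 201 CPM in the edited clone. All 3 edited libraries were below all 3 controls, yet the difference of -0.11 ± 0.07 was not called (adjusted p = 0.217). HOXA7 was at 56.6, 60.8 and 63.2 CPM and then 60.1, 59.5 and 58.0 CPM, with overlapping groups and a difference of -0.03 (adjusted p = 0.893). HOXA5 had 41.7, 39.8 and 42.7 CPM in the control and 39.6, 43.0 and 48.0 CPM in the edited clone, a difference of 0.07 (adjusted p = 0.638). HOXA6 had 16.6, 15.2 and 19.1 CPM and then 16.6, 16.2 and 24.1 CPM, a difference of 0.16 (adjusted p = 0.449). The third edited library was the highest of its group for HOXA3, HOXA5 and HOXA6, and without it the differences of HOXA5 and HOXA6 became -0.0052 and -0.047.

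MEIS1, which binds DNA together with HOXA9, was at 183, 172 and 175 CPM in KOPN-8 control and 160, 164 and 185 CPM in KOPN-8 edited. The third edited library was above all controls, and MEIS1 was not called (-0.06 ± 0.07, adjusted p = 0.638). PBX3 was at 23.6, 25.3 and 25.9 CPM and then 24.6, 26.2 and 21.2 CPM, and was not called either (-0.06 ± 0.09, adjusted p = 0.706). In KOPN-8, then, 1 member was called higher and 1 lower among 8, beside 28.7% of all tested genes called, 11.5% higher and 17.2% lower. CD33, a myeloid surface marker that made up most of the myeloid signal of this line, fell from 46.2 to 37.8 CPM alongside HOXA9 (-0.29, adjusted p = 0.0314). LYZ, another of the 6 myeloid markers, rose from 0.522 to 2.97 CPM (adjusted p = 2.88e-05), and the list summed to 46.3 to 47.2 CPM in the control and 36.3 to 44.8 CPM in the edited libraries. The part of these markers in the result was not tested.

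**Figure D3:**
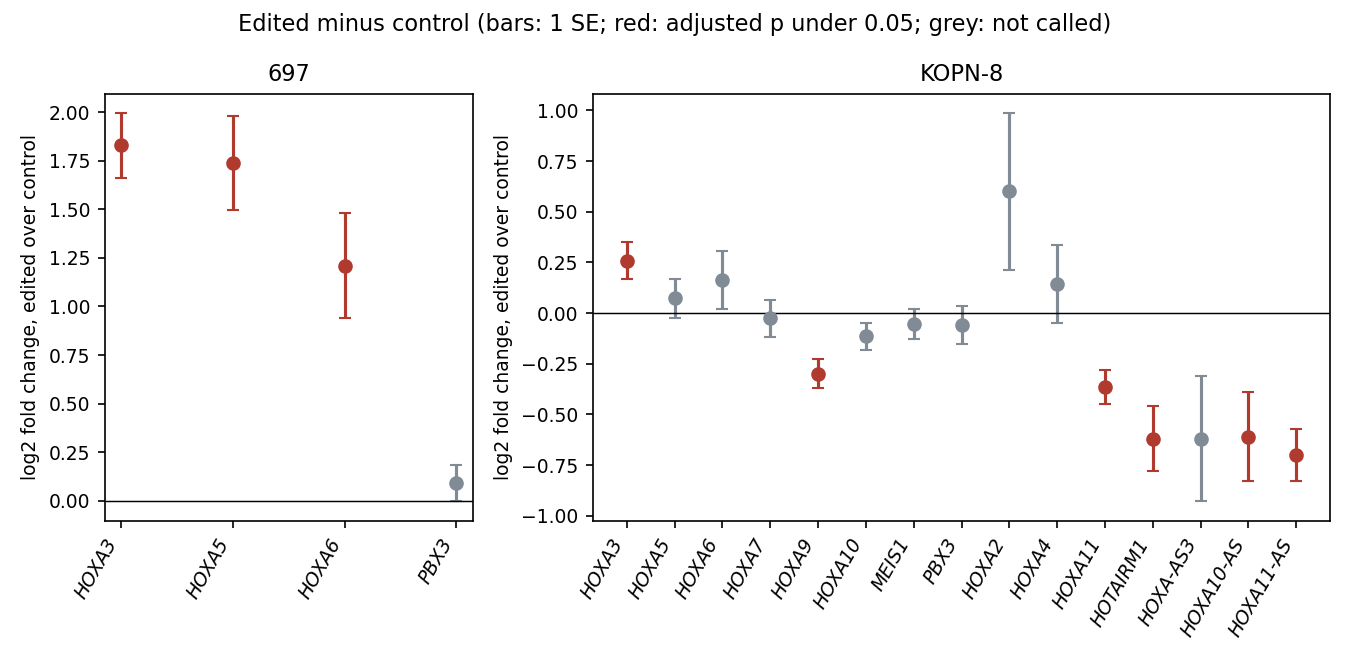
Log2 fold change of edited over control with 1 SE, in 697 (left) for the 4 members that passed the filter on low counts in 697 and in KOPN-8 (right) for the 8 members and the other tested genes of the HOXA cluster; red points were called at an adjusted p under 0.05 and the axes of the panels differ. In 697 the HOXA points lie between 1.21 and 1.83, while in KOPN-8 all members lie between -0.30 and 0.26 and the 4 noncoding genes lie below 0, 3 of them called.

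Beyond HOXA10, HOXA11 was lower in KOPN-8 edited, as were 3 of the 4 noncoding genes of the cluster that could be tested. Over all tested genes 17.2% were called lower there. HOXA11, the last HOXA gene expressed, fell from 74.5 to 57.9 CPM (-0.36 ± 0.08, adjusted p = 0.00174). Its antisense partner HOXA11-AS fell from 30.9 to 19.1 CPM (-0.70 ± 0.13, adjusted p = 0.000181). HOXA10-AS fell by 0.61 (adjusted p = 0.0428) and HOTAIRM1, a myeloid noncoding RNA at the anterior end of the cluster, fell by 0.62 (adjusted p = 0.00596). The fourth, HOXA-AS3, was not called (-0.62, adjusted p = 0.147), and the median over the 4 was -0.62 beside 0 over all genes. The HOXA10-AS call was lost with DESeq2 (0.141), with upper-quartile scaling (0.0518) and with no filter on low counts (0.0649). It was also lost with any 1 KOPN-8 library other than edited replicate 3 left out (0.0634 to 0.166). By limma on the normalized values HOXA11 and HOXA11-AS were not called (adjusted p = 0.426 and 0.275), nor was HOXA10-AS (0.063). HOXA2 and HOXA4 were not called in KOPN-8.

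The rise in 697 and the small changes in KOPN-8 were compared directly by the KOPN-8 change minus the 697 change. It was -1.57 ± 0.19 for HOXA3 (adjusted p = 1.24e-06), -1.67 ± 0.26 for HOXA5 (adjusted p = 3.9e-05) and -1.05 ± 0.31 for HOXA6 (adjusted p = 0.0174). Each was negative because the 697 rise was the larger, and 19.5% of all tested genes were called for this difference in either direction. The HOXA6 call was lost without 697 control replicate 1 (0.0584), 697 edited replicate 2 (0.0616) or 697 edited replicate 3 (0.0506), each an adjusted p. PBX3 was not called for the difference (adjusted p = 0.494), and HOXA7, HOXA9, HOXA10 and MEIS1 have no usable change in 697 to compare.

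Of 9 neighbours of the cluster on 7p15 that were tested, 0 were called in 697, beside 9.45% of all tested genes. NFE2L3, SNX10 and SKAP2 passed the filter on low counts only through KOPN-8, so a call in 697 was hardly possible for them. They had 0, 0 and 14 counts in 697 control and 1, 1 and 11 in 697 edited. In KOPN-8, 1 of the 9 was higher and 4 were lower. SKAP2, an adaptor protein gene on the anterior side, fell from 1147 to 794 CPM (-0.53 ± 0.07, adjusted p = 4.75e-06). It shared the line pattern of HOXA9, with 14 counts in 697 control and a ratio of 3680 (2193 to 6731) between the controls. SNX10, a sorting nexin gene, fell by 0.35 (adjusted p = 0.00238) and had 0 counts in 697 control. Neither was called by limma on the normalized values (0.324 for SKAP2 and 0.361 for SNX10). NFE2L3 fell by 2.34 and HIBADH by 0.48, and TAX1BP1 rose by 0.26. Over the whole short arm, 19 of 238 tested genes were called higher and 2 lower in 697, and 22 higher and 31 lower in KOPN-8. These short-arm numbers include the HOXA cluster, with HOXA2, HOXA3, HOXA5 and HOXA6 among the genes called higher in 697. On the long arm, 21 of 473 were called higher and 24 lower in 697, and 43 higher and 67 lower in KOPN-8. Over all tested genes 4.85% were called higher and 9.45% in either direction in 697. In KOPN-8 11.5% were called higher and 17.2% lower.

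Of 11 other TALE genes tested, 7 were called higher in 697 control and 2 in KOPN-8 control. Over all tested genes, 73.3% were called in either direction. MEIS2, IRX1, IRX2 and IRX3 had 0 counts in KOPN-8 control, and MEIS3 had 4 in 697 control. These genes passed the filter on low counts through 1 line only, so their gap between the lines was fixed in advance. PBX2, at 71.5 to 82.0 CPM as group means, was not called in either line, and PBX4 had at most 3.05 CPM as a group mean. Fitted on only the groups compared, PBX2 was called higher in KOPN-8 edited (0.16, adjusted p = 0.0496).

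MEIS2 and MEIS3, the other MEIS genes, were each expressed in 1 line. MEIS2 had 0 counts in KOPN-8 control and rose in 697 from 3.66, 3.45 and 3.62 CPM to 6.77, 6.55 and 5.46 CPM, without overlap (0.81 ± 0.21, adjusted p = 0.0153). That call was lost without 697 control replicate 2 (0.0533), 697 edited replicate 1 (0.0672) or 697 edited replicate 2 (0.063). MEIS3 rose in KOPN-8 from 22.0 to 32.2 CPM (0.55 ± 0.13, adjusted p = 0.00156), a call not made by limma on the normalized values (0.538), and had 4 and 8 counts in the 697 groups. Of these 11 TALE genes, MEIS2 was the 1 called in 697 and MEIS3 the 1 called in KOPN-8. Over all tested genes the shares called were 9.45% in 697 and 28.7% in KOPN-8. IRX1 and IRX2, more distant TALE genes, were at 25.7 and 237 CPM in 697 control and had 0 counts in KOPN-8 control.

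**Figure D4:**
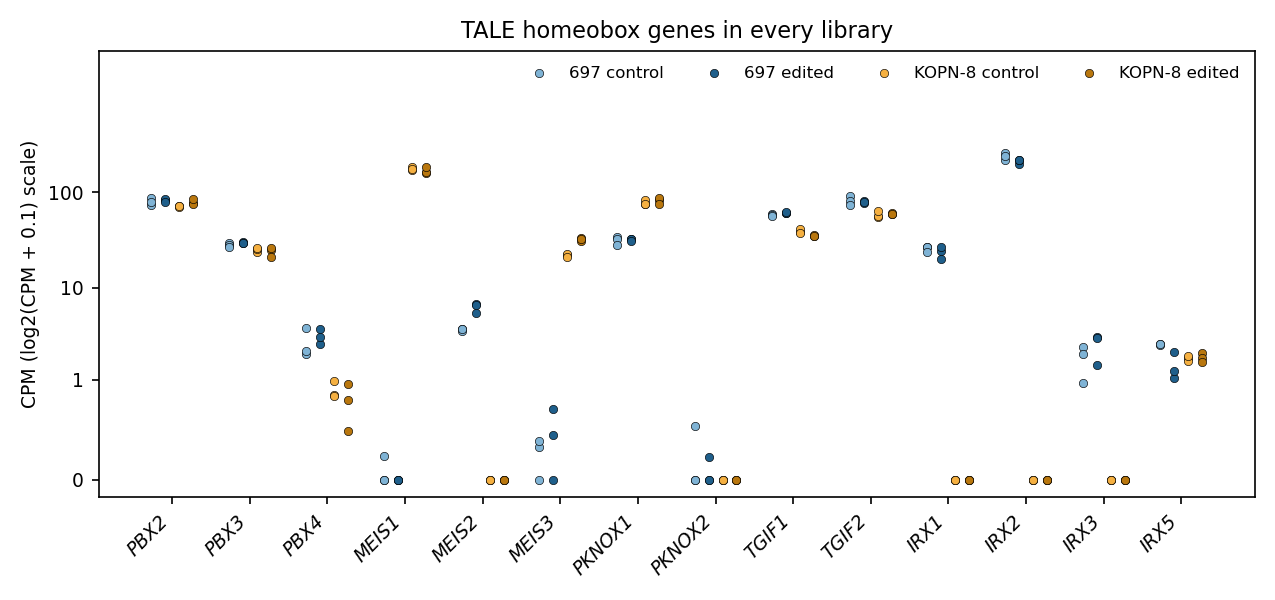
CPM of the PBX, MEIS, PKNOX, TGIF and IRX genes in every library, on a log2(CPM + 0.1) axis, with 3 points a group. IRX1 and IRX2 are high in 697 and at 0 in KOPN-8, MEIS1 shows the reverse, and PBX2 and PBX3 lie at similar levels in all 4 groups.

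The other HOX clusters were nearly silent in both lines. All 10 HOXB genes had 0 counts in the 12 libraries, and 5 of 9 HOXC and 7 of 9 HOXD genes did, with 88 and 7 counts in all for those clusters. The 6 HOXA members held 53299 counts over the same libraries.

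Among 16 genes of complexes known to keep HOXA genes active in leukaemia with a KMT2A fusion, 15 were tested. In 697, 3 were called higher and 0 lower: KMT2A itself (0.25, adjusted p = 0.0213), its chromatin partner PSIP1 (0.20, adjusted p = 0.0444) and AFF1, a subunit of the super elongation complex (0.29, adjusted p = 0.00708). The call was lost without 697 edited replicate 2 for AFF1 (0.0566), without 697 control replicate 3 or edited replicate 2 or 3 for KMT2A (0.0617 to 0.105), and with any 1 library other than 697 control replicate 1 and KOPN-8 edited replicate 3 left out for PSIP1 (0.0599 to 0.188). Fitted on only the groups compared, KMT2A (adjusted p = 0.0647) and PSIP1 (0.143) were not called either. PSIP1 was also not called with no filter on low counts (0.0852). The list median was 0.05 beside 0 over all genes. Over all tested genes 4.85% were called higher in 697. In KOPN-8, 4 were higher and 3 lower, beside 11.5% and 17.2% of all tested genes. ELL, an elongation factor, rose by 0.42, while DOT1L, the methyltransferase of lysine 79 of histone H3, fell by 0.30 and AFF1 by 0.34. KMT2A rose by 0.19, MEN1, its tethering partner, by 0.24 and AFF4 by 0.18, and ASH2L fell by 0.44. The DOT1L call was lost without KOPN-8 control replicate 1 (0.104) or edited replicate 2 (0.0854), and by limma on the normalized values (0.0502). Those of KMT2A and AFF4 were lost with any 1 KOPN-8 library other than control replicate 2 left out (0.0545 to 0.245). AFF4 also lost its call with no filter on low counts (0.0717). In KOPN-8 the counts of KMT2A and of MLLT1 each hold both the normal gene and the part kept in the fusion. MLLT1 was not called in either line.

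Of 16 genes known as targets of HOXA9 and MEIS1 in leukaemia, 14 were tested. In 697, where HOXA9 had no count in either group, 3 were called higher: the kinase gene CDK6 (0.53, adjusted p = 0.000423) and the transcription factor genes ERG (0.53, adjusted p = 0.000122) and MYB (0.28, adjusted p = 0.00475). In KOPN-8, 3 were higher and 3 lower. TRIB2, a pseudokinase gene, rose from 163 to 324 CPM (0.99, adjusted p = 2.13e-09), CDK6 rose by 0.41 and PIM1 by 0.27, the last losing its call with any 1 KOPN-8 library other than edited replicate 2 left out (0.0588 to 0.112). PIM1 was also not called by limma on the normalized values (0.0885). ERG fell from 51.5 to 26.6 CPM (-0.96, adjusted p = 5.13e-09), LMO2 fell by 1.01 and IGF1R by 1.00. The median of the list was 0.06 in 697 and -0.05 in KOPN-8, beside 0 over all genes in both. Over all tested genes 4.85% were called higher in 697, and 11.5% higher and 17.2% lower in KOPN-8.

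Over the 12 libraries, the genes whose log2 CPM was most like that of HOXA9 among 11587 compared were YBX3, DENND1B, CD33, HPF1 and RYK, each with a Pearson r of 0.9999 or more. All 5 had a mean of 0 CPM in both 697 groups, and all 5 had a lower mean in KOPN-8 edited than in KOPN-8 control, YBX3 for instance at 111 and 142 CPM. HOXA3 was most like LGALS9 (r = 0.995), PARVG (0.994), SIDT1 (0.993 or above), HEATR5B and CRYBG1. LGALS9, which codes for galectin-9, had means of 12.6 and 30.7 CPM in 697 control and edited and 94.6 and 118 CPM in the KOPN-8 groups. These values rest mostly on the difference between the lines, which all 12 points share.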

How the data were processed

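The 12 libraries were compared in 4 groups of 3, taken from the sample labels. Trimmomatic, STAR and DESeq2 with hg19 are named per the submitters' processing notes, while tool versions and the name of the read counter, with its strand setting and gene models, were not given in the sources used here. Whole-number read counts for each symbol, the main input, were deposited by the authors. A second deposited table holds a normalized signal, which the values show to be the authors' counts over 1 factor per library, and it served only 1 alternative.

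The main fit used edgeR 4.0.16 in R 4.3.3, with TMM library scaling, the filterByExpr function at a minimum count of 10 and the robust quasi-likelihood test, on all libraries together; the steps were first tested on simulated data. The 4 contrasts were edited against control in each line, the KOPN-8 change minus the 697 change, and control against control. The Benjamini-Hochberg adjustment ran over 15218 genes, and a gene was called under 0.05. Genes that passed the filter in 1 line only, or had few counts, are given as count ratios with exact 95% intervals or against a floor of 3 counts per group, which cover counting error only. Standard errors come from the fold change and its F statistic. Exon lengths are GENCODE v29. Alternatives were DESeq2 1.42.0, other scalings, no filter, a prior count of 2, the replicate block, fewer groups, limma 3.58.1 on log2 of the deposited normalized signal plus 1, and each library left out. No pair of replicates was within sampling noise (chi-square per degree of freedom 2.91 to 10.7).

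Same-numbered control and edited libraries deviated together in 697 (r = 0.105, 0.207 and 0.104), and more weakly in KOPN-8 (0.0508, 0.0362 and 0.0743). The main fit did not use the replicate number. The replicate block, set in both lines, was run as an alternative only. The 8 members and the gene lists were chosen with earlier results of these data known. All members were named. Of each other list, genes called in a comparison could be named, at most the 6 with the smallest p where more were called, and for the control groups only some of those called are named; added to these were PBX2, PBX4, KMT2A, MLLT1, HOXA4, HOTAIRM1 and SETD2; activator genes named beyond 6 were picked with their values in view. The 5 most alike genes were taken among genes with a mean of 5 CPM or more in some group. One marker, PECAM1, was not analysed, and some genes of the lists are not reported here.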

Additional observations from a re-analysis of the deposited data

Results flagged for a closer look

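These genes were noted because the KOPN-8 change differed from the 697 change by the test of that difference (edgeR quasi-likelihood F test, adjusted over all genes). Among the members they were HOXA3 (-1.57), HOXA5 (-1.67) and HOXA6 (-1.05), all on the log2 scale. Next to the cluster, TAX1BP1 differed by 0.29, a call lost without 697 edited replicate 1 or 2, KOPN-8 control replicate 1 or 3, or KOPN-8 edited replicate 1 or 2 (adjusted p from 0.0526 to 0.0969). TAX1BP1 also lost its call with no filter on low counts (0.0554). HOXA6 lost its call without 697 control replicate 1, 697 edited replicate 2 or 697 edited replicate 3 (0.0506 to 0.0616). Of the activator genes AFF1 differed by -0.63, ASH2L by -0.56 and ELL by 0.60. Of the HOXA9 and MEIS1 targets ERG differed by -1.49, IGF1R by -0.93, MYB by -0.34 and TRIB2 by 1.20. AFF1 and ERG were called in opposite directions in the 2 lines. A negative value means a lower change in KOPN-8 than in 697.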

How the results depend on the processing

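Each edited group is 1 clone, and the 697 values of HOXA2 and HOXA4 rest on few reads. The number of members called in KOPN-8, 2, was 0 by limma on the authors' normalized values and ran from 1 to 2 with 1 library left out, HOXA9 being the member that kept its call; the cause was not tested. With the replicate block, 2319 genes were called in 697 in place of 1438, and the members called were 3 in 697 and 2 in KOPN-8, as without it. Leaving out 1 library turned the sign of differences that were never called: PBX2 in 697 (lowest -0.024, highest 0.11), and in KOPN-8 HOXA5 (-0.0052 to 0.14), HOXA6 (-0.047 to 0.26), HOXA7 (-0.068 to 0.011), PBX3 (-0.12 to 0.027) and MLLT1 (-0.026 to 0.041). Over all member values and alternatives, 382 kept direction and call, 9 lost the call, 1 gained it and 4 changed sign. For the other named genes these numbers were 875, 69, 3 and 3.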
